A study of Capra hircus with 4 samples.

Results

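Glycolysis enzymes and the fructose bisphosphatase FBP2 were measured in cultures of secondary hair follicle stem cells from the cashmere goat, Capra hircus, the cells that feed the follicles of the fine undercoat. The members are 10 listed genes, namely HK1, HK2, PFKP, FBP2, ALDOA, TPI1, PGK1, ENO1, PKM and LDHA, out of 20326 genes with a value. Of the 10 names, 9 equalled a name in the gene column of the deposited tables. LDHA was taken from the row named LDH-A (GeneID 100860870), for which RefSeq (goat assembly ARS1.2) gives LDHA as a synonym. Cells were isolated from dorsal skin and cultured at early anagen in April or at mid anagen in October, and each phase has 1 female and 1 male library. The labels call these biological replicates, and they give no age, no passage number and no statement on whether animals were pooled. The design asks which transcripts of these cells change as cashmere growth proceeds from early to mid anagen.

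Glycolysis turns glucose into pyruvate in the cytosol and yields ATP without oxygen. Hexokinase traps glucose as its phosphate, phosphofructokinase commits it to the pathway, and the later enzymes, from aldolase to pyruvate kinase, split the sugar and recover the energy. Lactate dehydrogenase then turns pyruvate into lactate and renews the NAD that the pathway needs. Fructose bisphosphatase runs the phosphofructokinase step backwards and belongs to gluconeogenesis. Hair follicles are known for making much lactate from glucose, and lactate dehydrogenase is known as an enzyme that marks active hair follicle stem cells in mice.

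The values are deposited abundances per gene, length-normalised as far as the tools named in the submitters' processing notes tell, and how many reads lie behind them is unknown. Their totals per library ran from 844960 to 1186966, with both mid anagen libraries below both early ones. Fold changes are on the log2(value + 1) scale, mid minus early anagen, from limma with Benjamini-Hochberg adjustment over the 12486 genes that reached 1 or more in 2 or more libraries. All 10 members passed this filter in every library. With 2 libraries per phase, p-values measure only the spread between these libraries. Over all genes limma called 38, or 0.304% of those tested, of which 28 (0.224% of those tested) were higher and 10 lower at mid anagen. After each library was rescaled to a common total it called 648, of which 565 were higher and 83 lower. Values below are listed in the order early female, early male, mid female and mid male, unless said otherwise.

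FBP2, the fructose bisphosphatase known from muscle (GeneID 102185744), fell at mid anagen and was the 1 member of 10 that passed the threshold. In all tested genes 0.0801% were called lower. FBP2 was at 57.1, 66.6, 16.6 and 14.5. Both mid libraries lay far below both early ones, and the 2 libraries of each phase were close to each other. The mean was 61.9 ± 6.71 (SD, n = 2) at early and 15.5 ± 1.43 (SD, n = 2) at mid anagen, so the mid mean was 25.1% of the early mean. The log2 fold change was -1.93 (SE 0.16, limma adjusted p = 0.0323), with -1.73 between the female and -2.12 between the male libraries. In rank by value among 20326 genes, FBP2 stood at 2489 and 2279 in the early and at 6716 and 7184 in the mid libraries. The call ended without the early female and without the early male library, and held without either mid library. The log2 fold change was -2.03, -1.82, -2.01 and -1.84 without the early female, early male, mid female and mid male library. Each of these fits has replicates in only 1 phase to estimate the spread. The call also ended when every gene above 0 in at least 1 library was tested (limma adjusted p = 0.105).

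**Figure D1:**
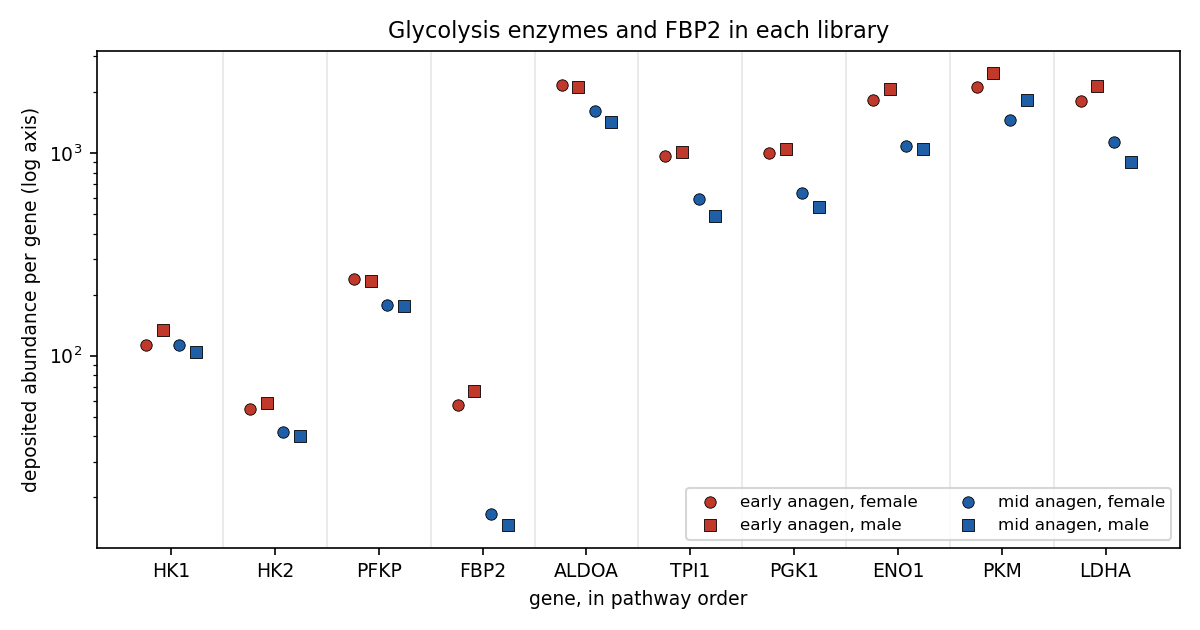
Deposited abundance of each member (log axis) in the 4 libraries, with genes in pathway order; red is early and blue mid anagen, circles are female and squares male libraries. FBP2 shows the widest gap, from 57.1 and 66.6 down to 16.6 and 14.5, while the HK1 points of the phases overlap.

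Of the hexokinases, HK2 was separate between the phases and HK1 was not. HK1 (GeneID 102190759), the hexokinase of most tissues, was at 113, 134, 113 and 104. It is the only member whose phases overlapped, since the female libraries had nearly the same value. Its log2 fold change was -0.18 (SE 0.17, limma adjusted p = 0.512). HK2 (GeneID 102168356), the insulin- and hypoxia-responsive hexokinase, was at 54.7, 58.5, 42.1 and 40.3. Its phases did not overlap, with a mean of 56.6 ± 2.70 (SD, n = 2) at early and 41.2 ± 1.26 (SD, n = 2) at mid anagen. Its log2 fold change was -0.45 with an SE of 0.14, which did not pass over all genes (limma adjusted p = 0.126).

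PFKP (GeneID 102190144), the platelet-type phosphofructokinase of the committing step, was at 240, 235, 178 and 176. The libraries of a phase differed by a few units and the mid mean was 74.7% of the early mean. The log2 fold change was -0.42 (SE 0.16, limma adjusted p = 0.169). FBP2, which catalyses the opposite reaction, therefore stood lower against PFKP at mid anagen within each library. The ratio of the FBP2 to the PFKP value was 0.238, 0.284, 0.093 and 0.0824, which does not depend on how libraries were scaled. On the log2 scale with a pseudocount of 1 the ratio changed by -1.51 between phases, with a pooled SD of 0.15 between libraries of a phase. The exact two-sided permutation test gave p = 0.333, the smallest that 2 against 2 libraries allow.

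Between the sugar-splitting step and the recovery of ATP, TPI1 and PGK1 differed more than ALDOA. ALDOA (GeneID 102187016), the main aldolase, which cuts the sugar bisphosphate into a pair of triose phosphates, was at 2172, 2116, 1611 and 1427. TPI1 (GeneID 102168433), the isomerase that interconverts those trioses, was at 967, 1010, 594 and 492. PGK1 (GeneID 102185725), which makes the first ATP of the pathway, was at 999, 1044, 632 and 543. For each of these genes both mid libraries were below both early libraries, and the mid male library was lowest. The mid mean was 70.9% of the early mean for ALDOA, 54.9% for TPI1 and 57.6% for PGK1. None passed over all genes, with log2 fold changes of -0.50 (SE 0.26) for ALDOA, -0.87 (SE 0.22) for TPI1 and -0.80 (SE 0.22) for PGK1. The limma adjusted p was 0.264, 0.0925 and 0.101 in that order.

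At the end of the pathway ENO1 and LDHA had mid means of 54.6% and 51.6% of the early ones, against 71.7% for PKM. ENO1 (GeneID 102175881), the enolase of most tissues, was at 1836, 2079, 1090 and 1049. PKM (GeneID 102178731), the gene of pyruvate kinases M1 and M2, was at 2110, 2476, 1463 and 1826. LDHA, the muscle-type subunit of lactate dehydrogenase, was at 1808, 2134, 1133 and 900.1. The phases of all 3 genes were separate, but PKM was higher in the male than in the female library of both phases. At -0.48 on the log2 scale (SE 0.28, limma adjusted p = 0.314), the PKM difference was under 2 standard errors. The log2 fold change was -0.87 for ENO1 (SE 0.25, limma adjusted p = 0.106) and -0.96 for LDHA (SE 0.27, limma adjusted p = 0.104). The values are per gene, so the splice forms of PKM cannot be told apart.

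By level, PKM, ALDOA, LDHA and ENO1 were the most abundant members, with early means of 2293 ± 259, 2144 ± 39.5, 1971 ± 230 and 1957 ± 172 (SD, n = 2 each), and neighbours in this order did not differ beyond their spread. PGK1 with 1021 ± 31.8 and TPI1 with 989 ± 29.8 (SD, n = 2 each) followed and were also within their spread of each other. PFKP and HK1 came next, with early means of 237 ± 3.89 and 124 ± 15.0 (SD, n = 2 each), then FBP2 and HK2. At mid anagen FBP2 and HK2 had changed places, with 15.5 ± 1.43 against 41.2 ± 1.26 (SD, n = 2 each), after early values of 61.9 ± 6.71 and 56.6 ± 2.70 (SD, n = 2 each) that were within their spread of each other. LDHA and ENO1 also changed places there, at 1017 ± 165 and 1069 ± 29.1 (SD, n = 2 each), which is within their spread.

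Both mid libraries were below both early libraries for 9 of the 10 members, against 30.9% of all tested genes. Of the 10, 7 had an unadjusted limma p under 0.05 and a lower mid value, namely FBP2, HK2, PFKP, TPI1, PGK1, ENO1 and LDHA, against 14.7% of all tested genes. This count of 7 was 3 without the early female, 1 without the early male, 5 without the mid female and 3 without the mid male library, and 5 after rescaling to a common total. The median log2 fold change of the members was -0.65, beside 0.01 over all tested genes. Abundant genes as a class were lower at mid anagen in these files. Among the 265 tested genes whose mean was 500 or more, the median was -0.63 and 67.5% were lower in both mid than in both early libraries. The 6 members in that class, ALDOA, TPI1, PGK1, ENO1, PKM and LDHA, had a median of -0.83. Among the 1077 genes with a mean from 100 to 500, where HK1 and PFKP lie, the median was -0.26, and among the 7067 genes from 10 to 100, where HK2 and FBP2 lie, it was -0.01. These counts describe the list and do not test it.

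Rescaling each library to a common total raised the median of all tested genes by 0.31 on the log2 scale, and the members moved with it. Their median became -0.31, which is 0.63 below the median of all tested genes after rescaling, compared with 0.66 below it as deposited. On this scale 7 members were lower in both mid libraries than in both early ones, against 12.7% of all tested genes. Of the 6 members with a mean of at least 500, 5 were lower, against 52.8% of tested genes of that level. With a mean from 100 to 500 it was 0 of 2 members against 30.5%, and from 10 to 100 it was 2 of 2 against 11.8%. Of the 7, HK2 and ALDOA had small differences left, with log2 fold changes of -0.11 (limma unadjusted p = 0.508) and -0.16 (limma unadjusted p = 0.494). PFKP (-0.08) and PKM (-0.14) overlapped, and HK1 was higher in both mid libraries, with a log2 fold change of 0.16. FBP2 was at 53.5, 56.1, 17.7 and 17.2 parts in 1000000 of the library total and was the 1 member called (log2 fold change -1.60, limma adjusted p = 0.0201), beside 0.665% of all tested genes called lower and 4.53% called higher. The 10 genes together made up 0.969% and 0.956% of the library total at early anagen and 0.736% and 0.778% at mid anagen.

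**Figure D2:**
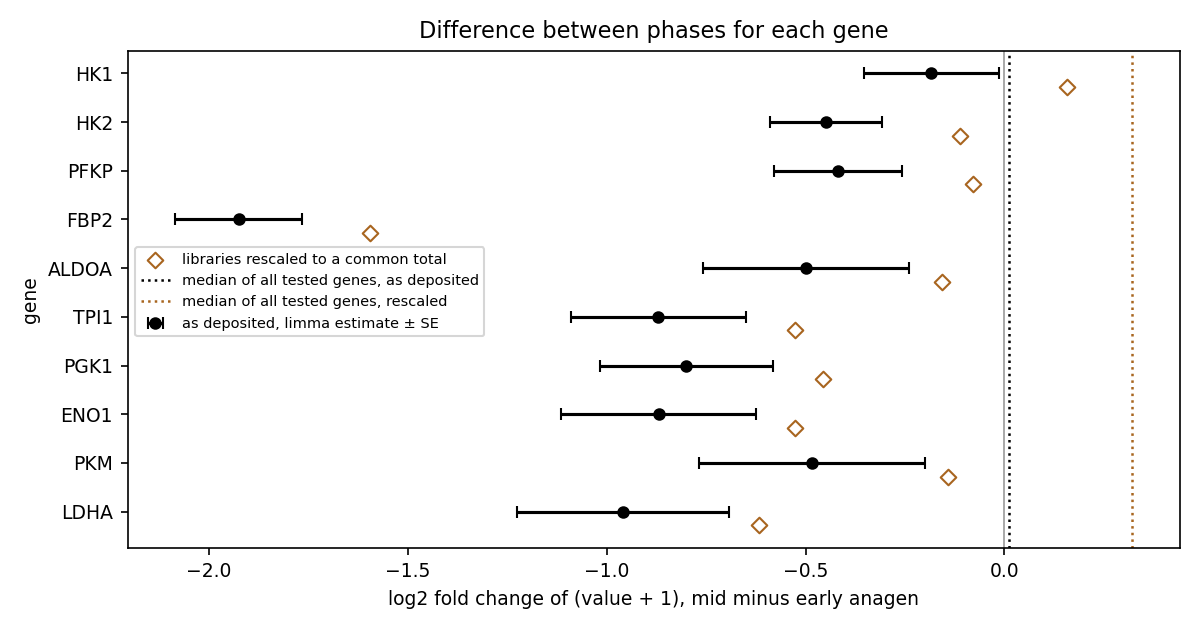
Log2 fold change of each member, mid minus early anagen: filled points are the limma estimates as deposited with bars of 1 SE (2 libraries per phase), open diamonds are the estimates after rescaling to a common total, and dotted lines mark the medians of all tested genes, 0.01 and 0.32. FBP2 lies at -1.93, the other 9 members between -0.96 and -0.18, and HK1 crosses 0 after rescaling.

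Shares within an enzyme family do not depend on library scaling. HK2 held 32.3% and 30.2% of the summed hexokinase value at early anagen and 26.9% and 27.5% at mid anagen, with HK1 making up nearly all the rest. PFKP held 64.8% and 60.4% of the phosphofructokinase value early and 71.6% and 65.4% mid. The remainder was mostly the liver type PFKL, found by its description as LOC102187810, at 127, 151, 66.2 and 89.2. FBP2 held 87.9% and 93.1% of the fructose bisphosphatase value early and 76.1% and 69.8% mid. Its relative FBP1, the liver enzyme, was at 7.90, 4.94, 5.21 and 6.30, so the phases overlapped for FBP1. LDHA held 78.6% and 76.1% of the lactate dehydrogenase value early and 75.3% and 69.7% mid. LDHB, the heart-type subunit, was at 478, 656, 357 and 361.

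ALDOA, ENO1 and PKM made up at least 98.8% of their families in every library. The shares of HK2, FBP2 and LDHA were lower in both mid libraries than in both early ones, and that of PFKP was higher. In log2 ratios with a pseudocount of 1, HK2 to HK1 changed by -0.26 (pooled SD 0.081), LDHA to LDHB by -0.32 (pooled SD 0.21) and PFKP to PFKL by 0.42 (pooled SD 0.26). Each gave p = 0.333 in the exact two-sided permutation test, again the smallest possible.

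**Figure D3:**
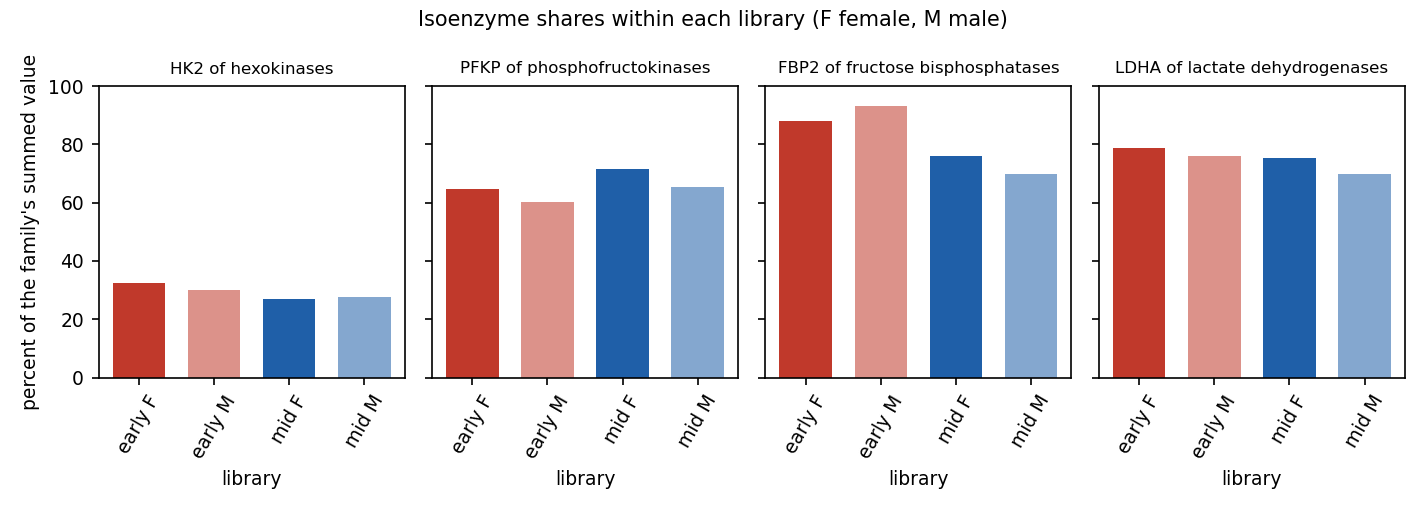
Share of HK2, PFKP, FBP2 and LDHA in the summed value of their enzyme family, in percent, for each library (red early, blue mid anagen, paler bars male). FBP2 goes from 87.9% and 93.1% to 76.1% and 69.8%, while the other shares move by fewer percentage points.

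The other enzymes of the pathway came from a list of 19 isoenzymes and steps, of which 14 could be tested and 0 were called in either direction by limma, with 5 lower and 2 higher at an unadjusted p under 0.05. Over all tested genes 14.7% were lower and 13.2% higher at that level. Both mid libraries were below both early ones for 8 of the 14 and above them for 5, against 30.9% and 31.5% of all tested genes. GPI, the isomerase after hexokinase, was at 417, 522, 251 and 253 (log2 fold change -0.89, limma adjusted p = 0.0837). PGAM1, the mutase between PGK1 and ENO1, was at 866, 989, 508 and 489.9 (log2 fold change -0.89, limma adjusted p = 0.0851). Both of these differences lay between those of PGK1 and LDHA. GAPDH, named as the step between TPI1 and PGK1, was at 4054, 4533, 3169 and 2886 (log2 fold change -0.50, limma adjusted p = 0.334). The 5 that were higher were low in level, with a highest value of 30.1, and were PFKM, PGAM2, BPGM, ENO2 and the row described as the lactate dehydrogenase C chain. The list had a median of -0.22, and 0.08 once libraries were rescaled to a common total, beside 0.01 and 0.32 over all tested genes.

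Control genes of phosphofructokinase and pyruvate dehydrogenase had a median of -0.43 over 15 tested of 17. Of the 15, 0 were called, and 7 were lower and 2 higher at an unadjusted limma p under 0.05. Over all tested genes 14.7% were lower and 13.2% higher at that level. PDK1, a kinase that restrains pyruvate dehydrogenase, had a log2 fold change of -1.01 (limma adjusted p = 0.0724). PFKFB3, which makes the activator of phosphofructokinase, was at 33.1, 35.4, 21.1 and 22.9 (limma adjusted p = 0.0841). After rescaling to a common total the median of that list was -0.13, beside 0.32 over all tested genes. Of 8 tested transport genes 0 were called and 2 were lower at an unadjusted p under 0.05, beside 14.7% of all tested genes. The 2 were SLC16A3, a lactate exporter, at 132, 124, 80.7 and 76.3 (limma adjusted p = 0.0811), and SLC2A1, the main glucose importer, at 1309, 1119, 684 and 712 (limma adjusted p = 0.108). The median over the transport genes was 0.02, and 0.35 rescaled to a common total, beside 0.01 and 0.32 over all tested genes.

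In the gluconeogenesis list 4 of 7 names could be tested and 0 were called, beside 0.304% of all tested genes. At an unadjusted limma p under 0.05 there were 0, beside 14.7% lower and 13.2% higher over all tested genes. The median of the list was 0.17 (rescaled to a common total 0.48), beside 0.01 and 0.32 over all tested genes. PC, pyruvate carboxylase, was at 29.7, 28.5, 34.4 and 47.0, and G6PC3, a glucose phosphatase, at 21.9, 24.3, 17.6 and 19.3. PCK1, the cytosolic enzyme of the path from oxaloacetate, was listed at 0 in every library. The log2 fold changes in this list ran from -0.31 to 0.56, beside -1.93 for FBP2.

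The pentose phosphate pathway, which branches off after hexokinase, had a median of -0.46 (rescaled to a common total -0.15) over 6 tested genes. Over all tested genes the medians were 0.01 and 0.32. In this pathway 0 were called and 3 were lower at an unadjusted limma p under 0.05, beside 14.7% of all tested genes. PGD was at 283, 335, 160 and 204 and TKT at 610, 759, 397 and 482. Glycogen genes had a median of 0.13 (rescaled 0.47) over 10 tested, with 0 called. At an unadjusted limma p under 0.05 there were 0, beside 14.7% lower and 13.2% higher over all tested genes. In that list PYGB, a phosphorylase, was at 18.6, 15.9, 21.0 and 25.0 and GBE1, the branching enzyme, at 67.0, 59.0, 53.7 and 40.5. The citrate cycle had a median of -0.31 over 15 tested genes, and of 0.03 once libraries were rescaled, beside 0.01 and 0.32 over all tested genes. Of the citrate cycle genes 0 were called and 4 were lower at an unadjusted limma p under 0.05, beside 14.7% of all tested genes. Among the 4 were IDH3A at 134, 166, 70.1 and 91.8 and MDH2 at 489, 569, 369 and 357.

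Genes that branch to serine and glycerol had a median of 0.34 (rescaled to a common total 0.64) over 6 tested. Over all tested genes the medians were 0.01 and 0.32. In this list 0 were called and 1 was higher at an unadjusted limma p under 0.05, beside 13.2% of all tested genes. PHGDH, which takes the product of PGK1 into serine synthesis, was at 296, 108, 469 and 387 (log2 fold change 1.25, SE 0.48, limma adjusted p = 0.167). PSAT1, the next enzyme, was at 642, 240, 923 and 669 (limma adjusted p = 0.244). Both differed more than 2-fold between the early libraries.

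Among 10 tested transcription factors and regulators of glycolytic genes, 0 were called, and 2 were lower and 2 higher at an unadjusted limma p under 0.05. Over all tested genes 14.7% were lower and 13.2% higher at that level. EGLN3, a hypoxia-induced prolyl hydroxylase, was at 64.8, 76.1, 42.9 and 36.1 (limma adjusted p = 0.0783), and SP1 was at 27.6, 21.0, 41.9 and 42.1 (limma adjusted p = 0.0838). HIF1A and MYC, named because they are textbook regulators of glycolysis and not by rule, were at 196, 186, 209 and 165 and at 167, 178, 148 and 156. The median of the list was -0.05, and 0.29 after rescaling to a common total, beside 0.01 and 0.32 over all tested genes. On the rescaled values limma called 2 of the list higher, SP1 (adjusted p = 0.0474) and EPAS1 (adjusted p = 0.0497), beside 4.53% of all tested genes. EPAS1, a hypoxia-inducible factor, was at 21.2, 19.1, 32.0 and 44.8 as deposited.

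**Figure D4:**
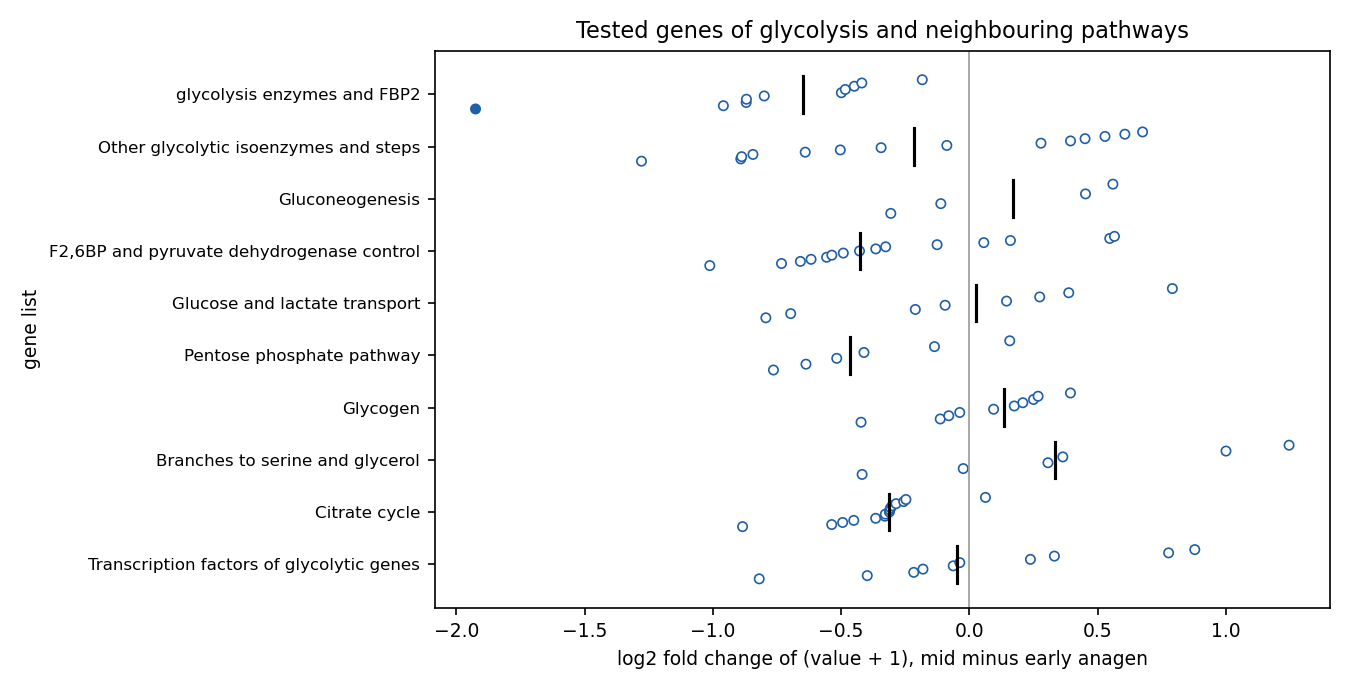
Log2 fold change, mid minus early anagen, of every tested gene in the glycolysis list with FBP2 and in 9 neighbouring lists; black bars are list medians and the filled point is the 1 gene past the threshold, FBP2. The members' median of -0.65 lies left of the medians of the other lists, which run from -0.46 to 0.34. Over all 265 tested genes with a mean of 500 or more, where 6 of the members lie, the median was -0.63.

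The members also differed in the shape of their pattern over the 4 libraries. Measured as the Euclidean distance between log2(value + 1) values centred on each gene's mean, TPI1 and PGK1 were the closest pair of members (0.079), followed by HK2 and PFKP (0.10). FBP2 was at least 0.97 from every other member. Over 10094 tested genes with a mean of at least 5, those nearest to FBP2 were NPM3 (distance 0.20), BNIP3 (0.25), RPL36AL (0.31), TMEM40 (0.33) and ATP5G1 (0.33). BNIP3, which marks mitochondria for degradation, was at 344, 365, 115 and 103. Those nearest to LDHA were LOC100860961, EXOSC7, LOC102188434, PIGF and GADD45GIP1, at distances from 0.021 to 0.068. LOC102188434 is described as a mitochondrial subunit of cytochrome c oxidase. These distances rest on 4 libraries that share their scaling and are given as a description.

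Near-identical copies can share reads with glycolytic genes, and how the counting split them is not given in the sources used here. A row described as like GAPDH, LOC102181016, was at most at 0.132, and PGK2, the testis copy of PGK1, was listed at 0 in every library. Both were looked up after the values were seen.

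The labelled cell type was checked against marker lists. All 10 keratinocyte and follicle stem cell markers were found and tested, with summed values of 39241, 43968, 19337 and 20415, and KRT5 and KRT14 were the most abundant in every library and carried that sum. Of the 10 markers, 3 were lower in both mid libraries than in both early ones, 3 were higher and 4 overlapped. The 3 lower markers, KRT5, KRT14 and ITGB4, were not called. LHX2 was called higher at mid anagen (log2 fold change 1.85, limma adjusted p = 0.0431). SOX9 and TCF7L1 had higher values in both mid libraries without passing (log2 fold changes 0.80 and 2.40). Fibroblast markers moved with the phase: all 10 were found, 8 were tested, and their summed value was 0.821 and 2.73 at early and 177 and 50.9 at mid anagen, with DCN at 0 in the early female library. The part of these cell type markers in the differences of the glycolysis genes was not tested. In bulk RNA a smaller share of cells that express a gene and less of its RNA per cell cannot be told apart. Skeletal muscle markers were listed because FBP2, ENO3, PGAM2 and PFKM are known from muscle. These markers had summed values of 3.10 to 4.03 over 8 found of 10 listed, with MYOD1, MYOG and MYL1 at 0 in every library. MYH1 and MYH2 were not found. CKM and ACTA1 were lower in both mid libraries than in both early ones, while DES and TNNT3 were higher. Only CKM was tested (log2 fold change -0.53, limma adjusted p = 0.163). ENO3 was at 10.1, 23.4, 4.07 and 8.09 (log2 fold change -1.28, limma adjusted p = 0.147), and its phases overlapped after rescaling to a common total. PGAM2 and PFKM were higher in both mid libraries. The summed value was 5.75 to 7.03 for 6 melanocyte markers, with DCT at 0 in every library. For immune markers it was 6.05 to 7.22 early and 11.1 to 17.1 mid, with PTPRC at 0 in every library. CD14 carried that difference. For endothelial markers it was 0.793 to 1.37 early and 4.52 to 6.06 mid, with CDH5 at 0 in every library. ERG carried that difference, while PECAM1 was at 0.313, 0.278, 0.0664 and 0.0777.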

How the data were processed

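RNA from 4 libraries, 2 per phase, was measured by RNA-seq. The deposited values are a signal, an abundance per gene. No source states its scaling, but totals differ between libraries while the median gene ratio lies near 1 in each, as for values rescaled to a common median. The submitters' processing notes name kallisto 0.46.1 and sleuth 0.30.0. Not given in the sources used here are the build, the annotation, the read depth and the way transcripts were combined, so no coordinates and no counting intervals are printed.

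Values were analysed as log2(value + 1) with limma 3.58.1 in R 4.3.3, with an intensity trend and phase as the only term. The threshold was an adjusted p of 0.05. The fit was tested on simulated data. Members and lists were chosen with earlier results of these data known. Genes named by rule are all 10 members, in each pathway list the called genes and the 2 with the smallest p, and the 5 genes nearest to FBP2 and to LDHA. Any other gene, such as GAPDH, PFKL, FBP1, LDHB, ENO3, EPAS1 or PCK2, was named outside this rule. PFKL and the lactate dehydrogenase C chain were matched by description. The names TALDO1, G6PC1, LYZ, MYH1 and MYH2 were not found. Alternatives were a replicate block, each library left out, pseudocounts of 0.1 and 5, a filter of 5 and none, 2 scalings, removal of the trend with gene span and no intensity trend.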

Additional observations from a re-analysis of the deposited data

Results flagged for a closer look

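HK1 was lower at mid anagen between the male libraries and nearly unchanged between the female ones. Its log2 fold change, mid minus early anagen, was 0.000642 between the female libraries and -0.37 between the male libraries. With 1 library per sex and phase the difference between the sexes was not tested, and the female value is close to 0.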

How the results depend on the processing

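Under all 13 alternatives FBP2 kept a negative log2 fold change, from -2.03 to -1.60. The number of genes called changed with a pseudocount of 0.1 (18), without a filter (0, with 3843 genes at an unadjusted p under 0.05) and after rescaling to a common total (648). Leaving out 1 library gave 0 to 733 called genes and 0 to 1 called members. The 0 came without the early female library (2897 genes at an unadjusted p under 0.05) or the early male library (1445). Without a filter 0 members were called, and the cause was not tested. Rescaling moved the members' median to -0.31 and reversed HK1 to 0.16, and the cause of the difference in totals was not tested. The change in the FBP2 to PFKP ratio was -1.29 with a pseudocount of 5.

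With the replicate number, which is the sex, as a replicate block, limma called 1782 genes, or 14.3% of those tested. Of these, 865 (6.93% of those tested) were lower at mid anagen. FBP2 was again the 1 member of 10 called (limma adjusted p = 0.00504). The replicate numbers do not show that libraries are paired, since only sex is shared. The deviations of same-numbered libraries from their phase means correlated at 0.292 over 12486 genes. The read depth is unknown, so its limit on these values cannot be given.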

Other observations

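The 3 serine synthesis genes and PCK2 shared a low value in the early male library, which was seen after the values were known. PHGDH was at 108 there against 296 in the early female library, PSAT1 at 240 against 642 and PSPH at 130 against 271. PCK2, the mitochondrial enzyme that makes phosphoenolpyruvate, was at 96.2 against 212, and at mid anagen at 204 in the female and 218 in the male library.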
